A study of Mus musculus with 14 samples.

Results

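A set of 10 imprinted genes that control growth, Igf2, H19, Cdkn1c, Dlk1, Meg3, Peg3, Peg10, Plagl1, Grb10 and Ndn, were read by their symbols from the expression tables of mouse forebrain. All 10 were found among 56941 gene IDs, and all 10 passed the filter on low counts in every comparison. The lowest single value among them was 107 counts, for Dlk1 in the shallowest library of embryonic day 18.5 (E18.5). The study crossed mice with floxed Sbno1 and floxed Trp53 to the Emx1-Cre driver, which recombines in progenitors of the dorsal telencephalon and in their descendants. Groups were ff and dcKO (the double conditional knockout) compared in the telencephalon of E12.5 embryos, 3 libraries each, and in the cerebral cortex of E18.5 embryos, 4 each. Whether the ff animals carried Cre is not given in the sources used here. Cells that never expressed Emx1, such as interneurons, vessels, blood and meninges, keep both genes in such a model.

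Imprinted genes are transcribed mainly from the copy inherited from one parent. Many of the paternally expressed ones favour fetal growth and many of the maternally expressed ones restrain it, which makes their dose a classical setting of embryonic size. In the embryonic brain they are active in progenitors, in neurons and, for Igf2, in meninges, vessels and choroid plexus. The counts sum both parental copies, so they show how much RNA was present and not which copy made it. In such bulk samples fewer cells of a type and less RNA per cell cannot be told apart.

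Library totals ran from 42035736 to 81961466 estimated counts, except for 4919700 in ff replicate 1 of E12.5 and 5980840 in dcKO replicate 1 of E18.5. The library name in the description of 11 of 14 samples belonged to another group than the title, so groups follow the names of the table columns. Emx1, at the locus of the Cre driver, was lower in dcKO at both stages, by 0.96 at E12.5 and by 0.81 at E18.5 on the log2 scale, with adjusted p of 0.00833 and 8.31e-06. The Emx1 call of E12.5 was lost without dcKO replicate 2 or 3, at -0.94 and -0.998 with adjusted p of 0.113 and 0.0632. Sbno1 had a log2 difference of -0.59 at E12.5 (adjusted p = 0.0505) and of -0.03 at E18.5, and Trp53 of -0.23 (adjusted p = 0.218) and -0.20 (adjusted p = 0.0319). The Trp53 call was lost without dcKO replicate 1, 3 or 4 or ff replicate 3 or 4 of E18.5, at -0.21 to -0.16. On TPM (RSEM's transcript abundance, scaled for gene length and depth) Sbno1 was 22.3 to 28.4 in ff and 13.5 to 17.4 in dcKO at E12.5. At E18.5 it was 14.7 to 18.4 TPM in ff and up to 26.2 TPM in dcKO, higher in every library labelled dcKO than in any labelled ff, which goes against the label. Values over a whole gene do not show whether the floxed part is gone, so ff and dcKO here and below mean the libraries labelled so, and each direction rests on those labels. Emx1 kept the groups of E18.5 apart, at 34.5 to 36.6 TPM in ff and 21.3 to 23.4 TPM in dcKO. All 7 dcKO libraries were male by their sex-linked transcripts, while 1 ff library of E12.5 and 2 of E18.5 were female.

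Promoters from RefSeq (GRCm38.p6, 250 bases before to 50 bases after a start site) were at hand for 7 of the 10 genes, with 12 start sites. H19, Cdkn1c and Peg10 had no entry. The first start sites of Meg3, Peg3 and Plagl1 are printed, Meg3 and Peg3 as the only ones with a searched motif and Plagl1 as one without, from a gene with one of the largest rises in dcKO at E18.5. Grb10 and Dlk1, which rose too, held none of the motifs. Capitals mark, on either strand, the cyclic AMP response element TGACGTCA, the TATA motif TATAAA, or GGGGCCCC, a palindrome contained in a sequence described for the protein that Plagl1 encodes.
Meg3 (chr12:109540746-109541045, plus strand): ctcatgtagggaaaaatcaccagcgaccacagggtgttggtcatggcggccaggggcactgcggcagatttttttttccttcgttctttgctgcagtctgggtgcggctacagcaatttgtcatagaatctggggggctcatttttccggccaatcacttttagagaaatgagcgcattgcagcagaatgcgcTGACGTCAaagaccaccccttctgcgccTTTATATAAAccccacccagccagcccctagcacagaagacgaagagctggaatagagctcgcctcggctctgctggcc
Peg3 (chr7:6730370-6730669, minus strand): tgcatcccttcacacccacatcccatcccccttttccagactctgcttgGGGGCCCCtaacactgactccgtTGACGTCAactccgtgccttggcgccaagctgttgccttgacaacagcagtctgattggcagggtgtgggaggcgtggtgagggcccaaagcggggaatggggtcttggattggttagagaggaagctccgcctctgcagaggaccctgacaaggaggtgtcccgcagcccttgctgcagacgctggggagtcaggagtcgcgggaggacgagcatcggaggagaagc
Plagl1 (chr10:13090582-13090881, plus strand): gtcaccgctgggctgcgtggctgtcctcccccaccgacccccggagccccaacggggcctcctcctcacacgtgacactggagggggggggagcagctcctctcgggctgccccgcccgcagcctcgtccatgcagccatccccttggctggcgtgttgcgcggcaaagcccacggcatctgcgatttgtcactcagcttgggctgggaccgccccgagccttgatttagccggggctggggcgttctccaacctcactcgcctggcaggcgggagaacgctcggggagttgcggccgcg
TGACGTCA began 57 bases before the Meg3 start site and 178 bases before the Peg3 start site, and 1.79% of all 32851 promoters in the table hold it. Meg3 also held TATAAA on both strands, in overlapping copies that began 29 and 25 bases before the start site. TATAAA occurs in 13.6% of promoters. GGGGCCCC began 201 bases before the Peg3 start site and occurs in 1.08% of promoters. The YY1 type motif GCCATNTT, present in 6.05% of promoters, was in none of the 12. The remaining 10 promoters of the genes held none of these motifs. The promoter of the first Grb10 start site had 45 CG dinucleotides, more than 98.1% of all promoters, and the Plagl1 promoter had 26, against a median of 7. The motifs were chosen after these promoters had been read, and a match is not evidence of binding.

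At E18.5, 6 of the 10 genes rose in the cortex of the libraries labelled dcKO and 1 fell. Meg3, Peg10 and Plagl1 were about doubled, with fold changes of 2.07, 2.06 and 1.90. Peg3, Dlk1 and Grb10 rose by 1.37-fold, 1.35-fold and 1.29-fold, and Ndn was 1.11-fold lower. Among all 17974 genes tested, 15.6% were called higher and 16.6% lower. The median log2 fold change was 0.44 over the 10 genes and 0.03 over all genes. Calls rest on an adjusted p under 0.05 in edgeR's quasi-likelihood test, with p-values adjusted by Benjamini-Hochberg over all genes tested. Levels of single libraries are given as CPM (counts scaled to a common library size) after TMM scaling, in the order of replicates 1 to 4.

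**Figure D1:**
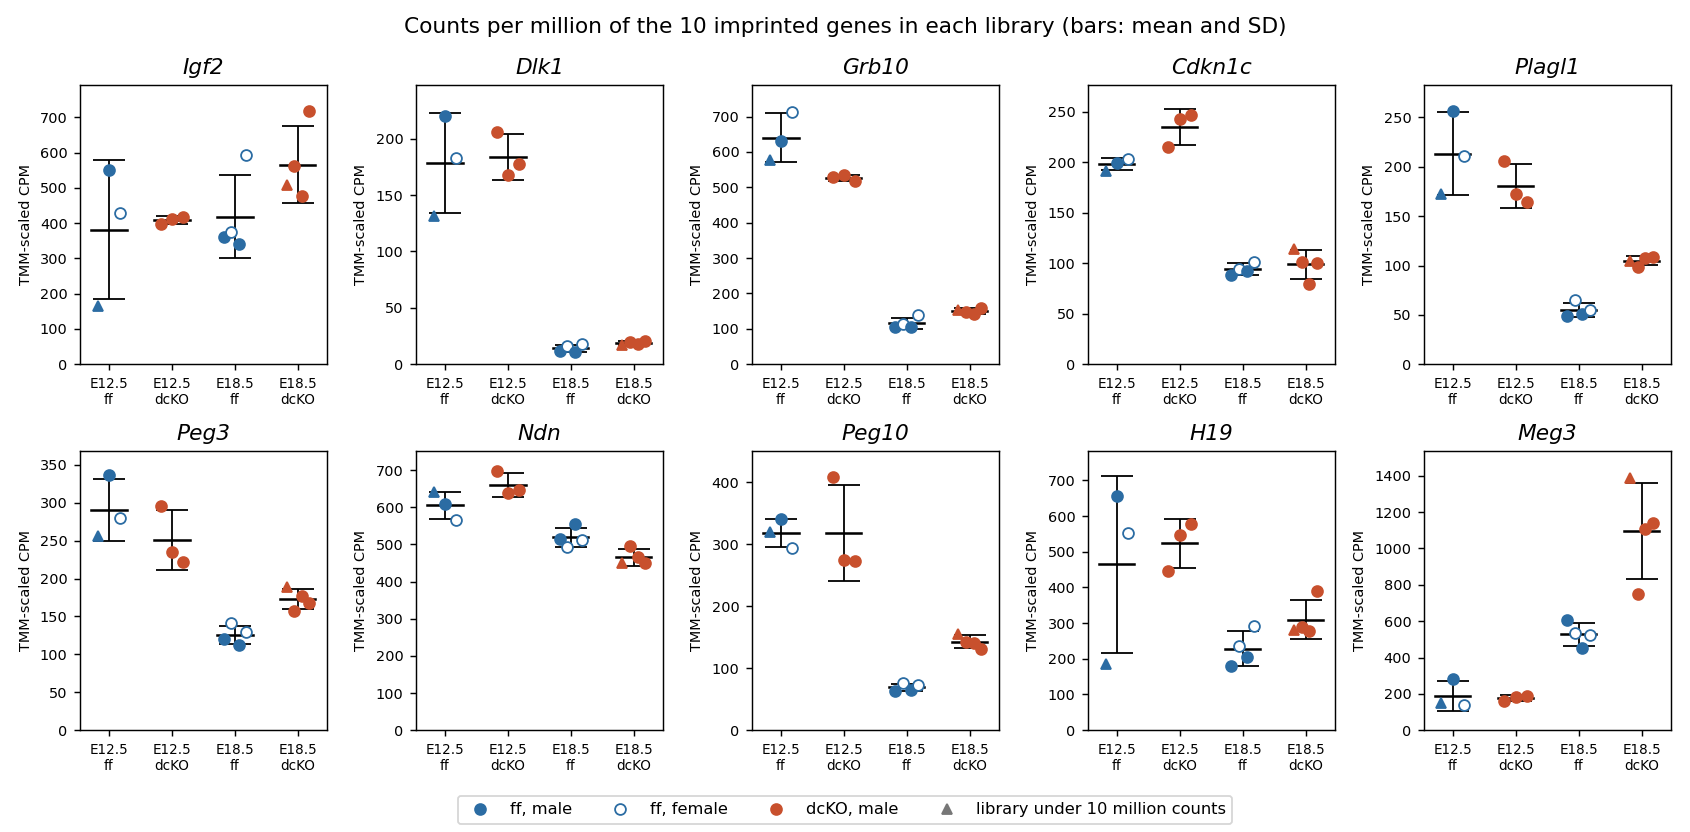
Each panel plots one gene, with TMM-scaled CPM on a linear axis from 0 and the 4 groups side by side, each stage scaled in its own fit. Points are libraries, open circles are female, triangles are the 2 shallow libraries, and bars give the mean and SD. Peg10 and Plagl1 of E18.5 show a clear gap between ff and dcKO, and Igf2 and H19 of E12.5 ff the widest spread relative to the group mean.

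Among the long noncoding RNAs, Meg3 is the maternally expressed transcript of the Dlk1-Dio3 cluster on chromosome 12 and is known as a growth suppressor. Meg3 measured 608, 533, 452 and 521 CPM in the ff libraries of E18.5. In dcKO it measured 1386, 750.4, 1109.5 and 1140.0 CPM. The groups did not overlap, and dcKO replicate 2 lay nearest to ff. The log2 fold change of Meg3 was 1.05 ± 0.19 (SE) with an adjusted p of 0.00461. With male libraries alone it was 1.02 with an adjusted p of 0.0628. Meg3 stood at the 96.5th percentile of all fold changes at this stage.

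H19, the maternally expressed RNA downstream of Igf2 on chromosome 7, measured 181, 235, 205 and 293 CPM in ff. In dcKO it measured 282, 288, 277 and 390.2 CPM. The highest ff library, replicate 4, lay above 3 of the 4 dcKO libraries. H19 had a log2 fold change of 0.44 ± 0.18, which did not pass (adjusted p = 0.0951), but without ff replicate 4 it was 0.56 with an adjusted p of 0.0197. It passed as well with male libraries alone, at 0.66 with an adjusted p of 0.0226, and with sex as a covariate, at 0.69 with an adjusted p of 0.0169.

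The zinc finger gene Plagl1 encodes a paternally expressed transcription factor known to act on several other imprinted genes. Plagl1 measured 49.4, 65.4, 50.5 and 54.9 CPM in ff against 104, 98.4, 108 and 109 CPM in dcKO. All dcKO libraries lay far above all ff libraries, and the spread within each group was small. This difference was 0.93 ± 0.08 on the log2 scale with an adjusted p of 1.18e-05, and it stayed between 0.86 and 1.07 over all 21 settings.

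Peg3, another paternally expressed zinc finger gene, known for its role in maternal behaviour and apoptosis, measured 119.7, 141, 112 and 129.8 CPM in ff. In dcKO it measured 189, 157, 177 and 168 CPM. The groups did not overlap. Peg3 rose by 0.45 ± 0.08 on the log2 scale with an adjusted p of 0.000734.

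Peg10 is a paternally expressed gene derived from a retrotransposon and needed for the placenta. Peg10 measured 63.2, 75.6, 64.4 and 72.5 CPM in ff and 156, 143, 139.9 and 130.4 CPM in dcKO. Every dcKO library lay above every ff library, and neither group spread widely. Peg10 rose by 1.04 ± 0.07 on the log2 scale, with the lowest adjusted p of the 10 genes at 1.48e-06, and it ranged from 0.97 to 1.15 over the 21 settings.

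Grb10 encodes an adaptor that restrains signalling from the insulin and IGF1 receptors. It is maternally expressed in most tissues and paternally in neurons. Grb10 measured 105, 115, 105 and 139 CPM in ff and 155, 146, 142 and 158 CPM in dcKO. The groups did not overlap, although ff replicate 4 came within a few CPM of the lowest dcKO library. Grb10 rose by 0.37 ± 0.08 on the log2 scale with an adjusted p of 0.00514.

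Dlk1, the paternally expressed Notch-like membrane protein of the Dlk1-Dio3 cluster, had the lowest counts of the 10 genes. It measured 11.6, 15.8, 11.3 and 17.5 CPM in ff and 17.1, 20.1, 17.7 and 20.4 CPM in dcKO. The 2 female ff libraries, replicates 2 and 4, were the higher ones, and replicate 4 lay above the lowest dcKO library. The log2 fold change was 0.43 ± 0.14 with an adjusted p of 0.0352. The call was lost without ff replicate 1 or 3, where the log2 fold change was 0.33 and 0.32. It was also lost without dcKO replicate 2, 3 or 4, where it was 0.40, 0.47 and 0.39, with adjusted p of 0.0515 to 0.107 over these 5. The call was lost, too, in 1 fit of all 14 libraries, at 0.40 (adjusted p = 0.111), and with no filter on low counts, at 0.41 (adjusted p = 0.0655). With male libraries alone the log2 fold change of Dlk1 was 0.70 and with sex as a covariate 0.73.

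Igf2, a growth factor of the fetus, is paternally expressed in most tissues. It measured 361, 375, 342 and 594 CPM in ff and 508, 561, 476 and 719 CPM in dcKO. Replicate 4 of ff lay above 3 of the 4 dcKO libraries. For Igf2 the log2 fold change was 0.44 ± 0.22 and did not pass (adjusted p = 0.175). Without ff replicate 4 it was 0.63 with an adjusted p of 0.0083, and with male libraries alone 0.66 with an adjusted p of 0.0317. With sex as a covariate Igf2 was at 0.69 and did not pass (adjusted p = 0.0807).

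Cdkn1c encodes p57, a maternally expressed inhibitor of cyclin-dependent kinases that slows the cell cycle of progenitors. It measured 88.2, 94.6, 91.9 and 101 CPM in ff and 114, 102, 79.6 and 100.02 CPM in dcKO. The groups overlapped, and the log2 fold change was 0.06 ± 0.09 with an adjusted p of 0.666.

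Ndn encodes necdin, a paternally expressed protein known to restrain division and death of neurons. Ndn measured 515, 493, 555 and 511 CPM in ff and 449, 496, 467 and 449 CPM in dcKO. Replicate 2 of dcKO lay just above replicate 2 of ff, so the groups overlapped. The log2 fold change was -0.16 ± 0.06 with an adjusted p of 0.0485. The call was lost without dcKO replicate 1, 3 or 4 and without ff replicate 1 or 3, with log2 fold changes from -0.18 to -0.14 and adjusted p of 0.071 to 0.124. It was also lost without both shallow libraries, with a mean of at least 1 CPM, with no filter on low counts and with upper quartile scaling, at -0.14, -0.15, -0.18 and -0.13 with adjusted p of 0.0887, 0.0503, 0.0707 and 0.1003.

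Leaving out 1 library at a time gave 5 to 9 called genes at E18.5, with the 9 reached without ff replicate 4. Without the 2 shallow libraries there were 6, all higher. Without dcKO replicate 3 there were 5, all higher. In that library the choroid plexus markers summed to 54.6 TPM, with Ttr at 1.82 TPM. Enpp2 in it was at 32.2 TPM, within the 29.0 to 45.5 TPM of ff. With all libraries, 15.6% of all genes were called higher and 16.6% lower. Shares of all genes with libraries left out are not given here.

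Several marker lists differed between the groups of E18.5, some in the direction of the 6 genes that rose and some against it. The summed TPM of 14 ventral telencephalon markers was 452 to 525 in the ff libraries of E18.5 and 862 to 1089 in dcKO. All 14 were called higher, led in level by Dlx1 and Gad1. The sum of 8 neuron markers, led by Tubb3 and Stmn2, was 6638 to 6882 in ff and 4626 to 5210.2 in dcKO, and all 8 were called lower. Neuron markers also moved in the direction of Ndn.

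The sum of 10 proliferation markers, led by Pcna and Cdk1, was 327 to 393 TPM in ff and 483 to 505 TPM in dcKO, with 8 called higher. The sum of 18 diencephalon markers, led by Six3 and Nkx2-1, was 38.0 to 53.0 TPM in ff and 64.7 to 91.6 TPM in dcKO, with 6 of 12 tested called higher and Rax and Nkx2-4 at 0 in every dcKO library. Six3 stands in both this list and the ventral telencephalon list, at 10.2 to 11.6 TPM in ff and 21.7 to 31.9 TPM in dcKO. Erythroid markers, led by Hbb-bs and Hba-a2, summed to 3648 to 6196 TPM in ff and 595 to 2762 TPM in dcKO, with 0 of 7 tested called. Cortical markers, among them Neurod6, summed to 1199 to 1374 TPM in ff and 991 to 1076 TPM in dcKO, with 4 called higher and 5 lower of 11.

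Sums overlapped between the groups for choroid plexus markers, led by Ttr and Enpp2, at 1528 to 2652 TPM in ff and 54.6 to 3456 TPM in dcKO. That overlap rests on dcKO replicate 3, at 54.6 TPM. Replicates 1, 2 and 4 of dcKO, at 3039, 3456 and 2673 TPM, lay above every ff library. Of the 15 choroid plexus markers 0 were called. Sums overlapped too for endothelial and pericyte markers, led by Cldn5 and Vtn, at 263 to 418 TPM and 354 to 469.8 TPM, with 1 of 14 called higher. The part of any of these cell types in the change of the imprinted genes was not tested.

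At E12.5 none of the 10 genes passed, against 0.190% of 17853 genes tested. Cdkn1c and Grb10 came closest. Both had an unadjusted p under 0.05, as did 3433 of all genes tested, and both were called by DESeq2's Wald test. Cdkn1c measured 191, 199 and 203 CPM in ff and 214, 242 and 247 CPM in dcKO, with a log2 fold change of 0.24 ± 0.07 and an adjusted p of 0.135. With length and GC correction Cdkn1c was at 0.061 with an adjusted p of 0.672. Grb10 measured 577, 630.1 and 714 CPM in ff and 528, 536 and 519 CPM in dcKO, with a log2 fold change of -0.28 ± 0.09 and an adjusted p of 0.137. For both genes the groups of E12.5 did not overlap.

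In the authors' deposited table of the E12.5 comparison Grb10 had a log2 fold change of -0.23 with an adjusted p of 0.0215, and Cdkn1c of 0.20 with an adjusted p of 0.029. The authors' deposited table of the E18.5 comparison had an adjusted p under 0.05 for Peg10, Meg3, Plagl1, Peg3, Grb10 and Dlk1, with log2 fold changes of 1.01, 0.96, 0.89, 0.41, 0.33 and 0.34, and for Ndn, with -0.17. Sizes in the deposited tables can differ from those of the edgeR fit, as for Igf2 of E12.5, at 0.0049 against 0.088. The share of all genes that pass in the deposited tables is not given here.

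Igf2 and H19 of E12.5 differed more within the ff group than between the groups. Igf2 measured 165, 551 and 429 CPM in ff and 398, 411 and 419 CPM in dcKO. H19 measured 184.99, 656 and 551 CPM in ff and 447, 546 and 578 CPM in dcKO. Both were lowest in the shallow ff replicate 1, highest in ff replicate 2, and close together in the 3 dcKO libraries. The log2 fold changes were 0.09 ± 0.44 for Igf2 and 0.16 ± 0.49 for H19, and without ff replicate 1 they were -0.26 and -0.21.

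The other genes of E12.5 had overlapping groups. Meg3 measured 147, 283 and 136 CPM in ff and 161, 184 and 187 CPM in dcKO. Peg10 measured 319.5, 341 and 295 CPM in ff against 408, 274 and 272 CPM in dcKO, so replicate 1 of dcKO stood above all others. Plagl1 measured 173, 256 and 211 CPM in ff and 206, 173 and 164 CPM in dcKO, and Peg3 showed the same order of libraries within each group. The log2 fold changes of these 4 genes and of Dlk1 and Ndn lay between -0.25 and 0.13, with adjusted p of 0.394 to 0.999. Without ff replicate 2 the difference was -0.090 for Plagl1, against -0.25 with all libraries, and -0.095 for Peg3, against -0.22. Peg3 was at -0.35 without dcKO replicate 1 and at -0.048 with length and GC correction.

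**Figure D2:**
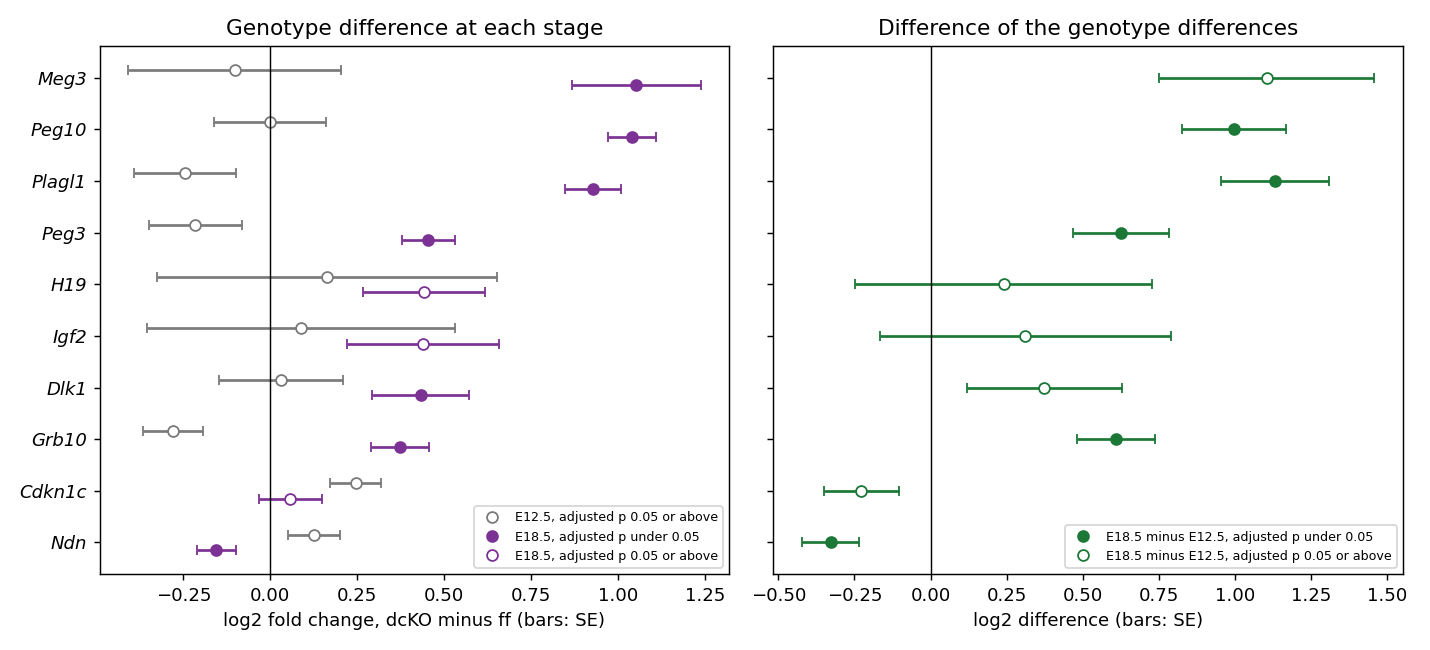
The left panel plots the log2 fold change between dcKO and ff of each gene at E12.5 (grey) and E18.5 (purple), and the right panel plots the E18.5 minus E12.5 difference of these fold changes (green). Bars are standard errors and filled points have an adjusted p under 0.05. Plagl1 reads -0.25 at E12.5, 0.93 at E18.5 and 1.13 for the difference.

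Stage and dissected tissue cannot be told apart when the genotype differences of E12.5 telencephalon and E18.5 cortex are compared. The genotype difference itself differed between E12.5 and E18.5 for 5 of the 10 genes, in 1 fit of the 4 groups. It was higher at E18.5 for Plagl1, by 1.13 ± 0.18 on the log2 scale (adjusted p = 0.00101), for Peg10 by 1.00 ± 0.17 (adjusted p = 0.00166), for Grb10 by 0.61 ± 0.13 (adjusted p = 0.00515) and for Peg3 by 0.63 ± 0.16 (adjusted p = 0.0147). It was lower for Ndn, at -0.33 ± 0.09 (adjusted p = 0.0267). Among all 19327 genes tested, 7.12% were called higher and 9.41% lower. Meg3 had one of the largest differences of the 10 genes, 1.10 ± 0.35, but did not pass (adjusted p = 0.0548). In the same test 8 of 14 ventral telencephalon markers were called higher, with a median of 0.71, as were 6 of 10 proliferation markers, with a median of 0.57. Of the neuron markers 4 of 8 were called lower, with a median of -0.36. The part of these cell types in the differences of the imprinted genes was not tested.

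Without replicate 3 of E12.5 dcKO only 3 genes passed, and the share of all genes without it is not given here. The Peg3 call was lost without dcKO replicate 2 or 3 or ff replicate 2 of E12.5, with differences of 0.57, 0.54 and 0.48. The Ndn call was lost without dcKO replicate 1 or 3 or ff replicate 3 of E12.5, and without dcKO replicate 4, ff replicate 1 or ff replicate 3 of E18.5, with differences of -0.35 to -0.29. The Meg3 difference passed without ff replicate 1 or 3 of E12.5 or dcKO replicate 2 of E18.5, at 1.24, 1.29 and 1.25.

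Most of the genes fell steeply from E12.5 telencephalon to E18.5 cortex, a step in which stage and dissected tissue cannot be told apart. In ff, 8 of 10 were lower at E18.5 and Meg3 was higher, while Igf2 did not pass (log2 fold change 0.14, adjusted p = 0.747). Of 19327 genes tested, 29.9% were called lower and 31.5% higher. In dcKO, 7 were lower and Meg3 was higher, against 31.3% and 30.9% of all genes. Dlk1 was 12.6-fold lower in ff, at -3.66 ± 0.19 on the log2 scale, and 9.74-fold lower in dcKO. Grb10 was 5.43-fold, Peg10 4.53-fold and Plagl1 3.83-fold lower in ff.

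In dcKO the same 3 genes were 3.56-fold, 2.27-fold and 1.75-fold lower. Cdkn1c was 2.07-fold lower in ff and 2.42-fold in dcKO. Peg3 was 2.28-fold and 1.48-fold lower, and Ndn 1.14-fold and 1.44-fold lower. Meg3 was 2.83-fold higher in ff and 6.08-fold higher in dcKO. H19 was 2.02-fold lower in ff (adjusted p = 0.024) and did not pass in dcKO (adjusted p = 0.0709). The H19 call in ff was lost without ff replicate 2 or 3 of E12.5 and without ff replicate 1 or 3 of E18.5, with log2 fold changes of -0.68, -0.88, -0.92 and -0.97. The Ndn call in ff was lost without ff replicate 1 or 2 of E12.5, at -0.16 and -0.17. The direction of Igf2 in ff turned without ff replicate 1 of E12.5, at -0.21, and without ff replicate 4 of E18.5, at -0.07.

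Marker lists moved between the stages as well. In ff all 10 proliferation markers were called lower at E18.5, with a median log2 fold change of -2.44, as were 15 of 17 diencephalon markers, with a median of -3.88, and 7 of 10 erythroid markers. All 8 neuron markers were called higher, with a median of 1.32. In dcKO 10 of 10 proliferation markers, with a median of -1.77, and 14 of 17 diencephalon markers were called lower, and 7 of 8 neuron markers higher. Their part in the stage differences of the imprinted genes was not tested.

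Levels of different genes were compared on TPM. At E12.5 all 10 genes were abundant. The highest mean in ff was that of H19, at 434 ± 249.8 TPM (SD, n = 3), followed by Ndn at 296 ± 23.3 and Cdkn1c at 283 ± 11.7. Peg3 was lowest at 59.5 ± 10.4, still above 94.4% of all gene IDs. The only gap between neighbours in the ff order of E12.5 lay between Peg10, at 85.2 ± 8.53, and Peg3, and the ranges of all other neighbours overlapped. In dcKO the order was again headed by H19, at 475 ± 61.4 TPM, and closed by Peg3, at 50.6 ± 9.35.

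At E18.5 the order was different. In ff, Igf2 at 304 ± 77.6 TPM, Meg3 at 301 ± 50.5, Ndn at 262 ± 5.19 and H19 at 223 ± 47.2 (SD, n = 4) formed the upper end, with overlapping ranges between neighbours. Cdkn1c at 136 ± 11.8 and Grb10 at 45.1 ± 7.54 were each separate from their neighbours. Peg3, Plagl1, Peg10 and Dlk1 had means of 17.8 to 27.7 TPM. In dcKO, Meg3 came first at 639.5 ± 138 TPM, ahead of Igf2 at 421 ± 94.3, although the lowest Meg3 library, at 452 TPM, lay below the highest Igf2 library, at 559 TPM, and Dlk1 came last at 27.2 ± 2.46.

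**Figure D3:**
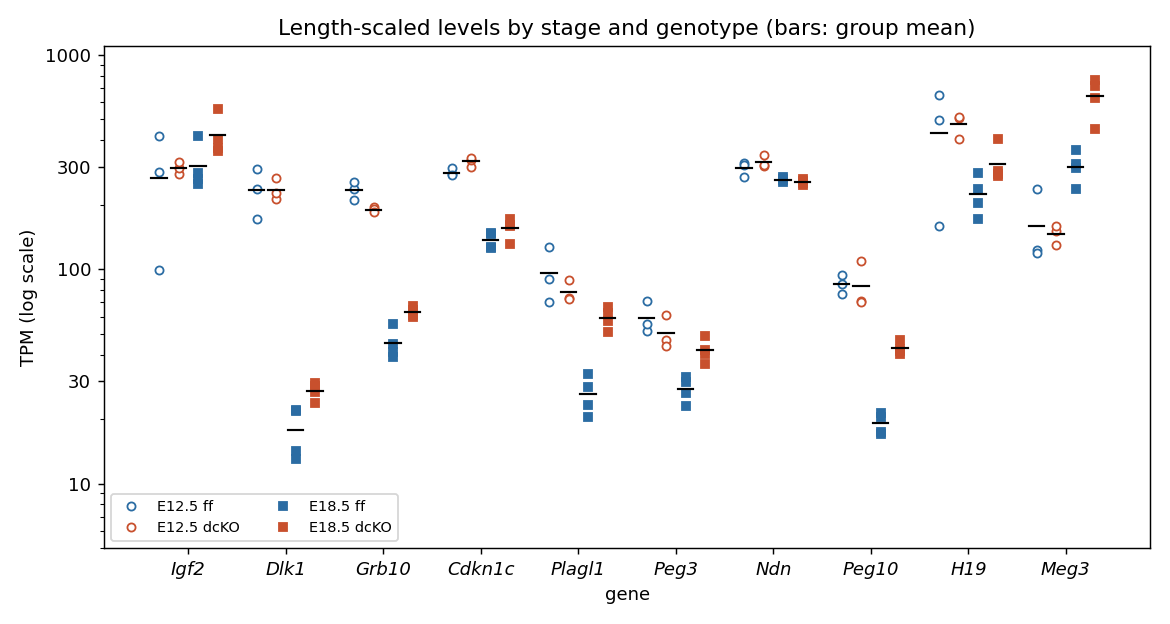
TPM of each gene is plotted on a log axis, with open circles for E12.5, filled squares for E18.5, blue for ff, red for dcKO and black bars for group means. Dlk1 drops from 233 TPM in ff of E12.5 to 17.8 TPM in ff of E18.5, while Meg3 climbs from 159 to 301 TPM.

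On log2(TPM + 1) the dcKO and ff groups of E18.5 did not overlap for 6 of the 10 genes, Meg3, Plagl1, Peg10, Dlk1, Peg3 and Grb10. All 6 were higher in dcKO, as were 14.3% of all genes with a value, while 0 of the 10 were lower throughout, against 4.67%. Each of the 6 had an exact two-sided permutation p of 0.0286, the smallest that 4 against 4 can give. The differences ran from 0.49 for Grb10 to 1.17 for Plagl1, beside a median of 0.13 over genes with a mean of at least 1 TPM. Ndn, called lower on counts, had TPM of 256 to 269 in ff and 247 to 265 in dcKO, a difference of -0.04. At E12.5 Cdkn1c was higher in every dcKO library, as were 8.03% of all genes, and Grb10 was lower in every one, as were 8.69%, and 3 against 3 cannot go below an exact p of 0.1.

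Some reads of these genes could not be assigned to 1 gene. Counts were more than 0.001 away from a whole number in 13 libraries for Meg3, in 8 for Igf2 and in 1 for H19, and whole by this tolerance for the other 7 genes in all 14. In GENCODE M21 (GRCm38) Igf2 lies at chr7:142650766-142666816, H19 at chr7:142575529-142578143 and Cdkn1c at chr7:143458339-143461050, so all 3 share the distal end of chromosome 7. Peg3 lies at chr7:6703892-6730431 and Ndn at chr7:62346569-62350262 on the same chromosome. Dlk1 at chr12:109452823-109463336 and Meg3 at chr12:109541001-109571726 are neighbours, while Plagl1 is at chr10:13060504-13131694, Grb10 at chr11:11930508-12038683 and Peg10 at chr6:4747306-4760517. In this annotation the exons of Igf2, H19, Meg3, Cdkn1c and Plagl1 overlap those of another gene, in part on the opposite strand. The library kit was a stranded one, but whether counting used the strand is not given in the sources used here. Whether their counts include reads of the antisense neighbours is therefore not known. Dlk1, Grb10, Peg3, Peg10 and Ndn had no such overlap.

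Neighbours in the same imprinted clusters did not all move with these genes at E18.5. Of 56 further imprinted genes in the list used, 51 were in the tables and 50 were tested, with 10 called higher and 6 lower and a median log2 fold change of 0.05. Both counts lie near the shares of all genes called at this stage, 15.6% higher and 16.6% lower. In 1 fit of all 14 libraries 6 were called higher and 6 lower, and the shares of all genes in that fit are not given here. Kcnq1ot1, the long noncoding RNA of the cluster that holds Cdkn1c, rose by 1.05 ± 0.11 on the log2 scale (adjusted p = 2.83e-05), from 3.73 ± 0.37 to 7.73 ± 0.25 CPM, while Cdkn1c had a difference of 0.06. Rasgrf1, a paternally expressed exchange factor for Ras, rose by 0.64, and Mirg and Magel2 rose by 0.78 and 0.81. Peg13, Mkrn3, Bcl2l1 and Trappc9 fell by 0.28, 0.44, 0.24 and 0.26.

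In the Dlk1-Dio3 cluster, Mirg and Rian, noncoding RNAs downstream of Meg3 on the same strand, had log2 fold changes of 0.78 and 0.21, both called, against 1.05 for Meg3. Dio3 at 0.30 (adjusted p = 0.179) and Rtl1 at 0.39 (adjusted p = 0.516) did not pass. Beside Ndn, Magel2 was higher and Mkrn3 lower, Peg12 rose by 0.44 (adjusted p = 0.0073) and Snrpn fell by 0.18. Snurf at -0.09 (adjusted p = 0.611) and Ube3a at 0.05 (adjusted p = 0.701) were not called. Next to Peg10, Sgce had a difference of 0.03 and Ppp1r9a of -0.02, neither called, while Asb4 rose by 0.55 (adjusted p = 0.0245), from 5.54 ± 1.13 to 8.29 ± 1.66 CPM. Calcr in the same cluster had a difference of 0.81 and did not pass (adjusted p = 0.0877). Next to Peg3, Usp29 had a difference of -0.07 and Zim1 of -0.26 (adjusted p = 0.0692). Rian, Dio3, Rtl1, Peg12, Snrpn, Snurf, Ube3a, Sgce, Ppp1r9a, Asb4, Calcr, Usp29 and Zim1 are named as neighbours after their values were seen.

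The IGF pathway around Igf2 and Grb10 was measured through 32 genes for ligands, receptors, binding proteins, adaptors, kinases and proteins that bind Igf2 mRNA. At E18.5, 11 of 29 tested were called higher and 6 lower, with a median log2 fold change of 0.16, where 15.6% of all genes were called higher and 16.6% lower. Without ff replicate 1 there were 7 higher and 6 lower, and the shares of all genes without it are not given here. Foxo1, a transcription factor that insulin signalling keeps out of the nucleus, rose by 0.52 ± 0.06 (adjusted p = 5.4e-05). Mtor, the growth kinase, rose by 0.30, and Irs4, an insulin receptor substrate, by 0.76 from 2.50 to 4.37 CPM. Grb14, the closest relative of Grb10, fell by 0.75 ± 0.07 (adjusted p = 1.01e-05), from 20.8 ± 0.57 to 12.4 ± 0.33 CPM, where Grb10 rose by 0.37. Pik3r1 and Akt1, a kinase subunit and a kinase of the pathway, fell by 0.44 and 0.30.

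At E12.5, 0 of 29 IGF pathway genes and 0 of 47 other imprinted genes were called by edgeR, against 0.190% of 17853 genes tested. At an unadjusted p under 0.05 there were 5 and 11, and DESeq2's Wald test called 5, all lower, and 7. Without dcKO replicate 1 edgeR called 3 and 4, all lower, and without ff replicate 2 it called 1 of the other imprinted genes. Many genes outside the lists also passed at the unadjusted p (counted above), by the Wald test and without dcKO replicate 1 (both counted below). The list counts at these settings are therefore not read as a result about the lists. Of the 6 other CDK inhibitor genes beside Cdkn1c, 5 were tested at E18.5 and 1 was called, Cdkn2d, which fell by 0.36 ± 0.08 (adjusted p = 0.00437). Of the same list 0 of 5 were called at E12.5.

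Within groups, libraries differed in a way that several of these genes shared. For each gene, deviations of log2 CPM from the mean of its group were compared over the 14 libraries, as a description, since libraries share depth and tissue content. Igf2 and H19 moved together, with Pearson's r of 0.96 over all libraries, 0.99 over the 6 of E12.5 and 0.91 over the 8 of E18.5. Peg3 and Plagl1 had r of 0.89, and Peg3 and Peg10 of 0.79. Dlk1 had r of 0.83 with Igf2 and 0.79 with Plagl1. Many other genes were more like each of them. Ranked by r among all genes compared, H19 had rank 29 and Dlk1 rank 376 for Igf2. Plagl1 had rank 28 and Peg10 rank 223 for Peg3, and Plagl1 had rank 134 for Dlk1. Ndn had r of 0.23 with Peg10 and below 0 with the other 8 genes.

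**Figure D4:**
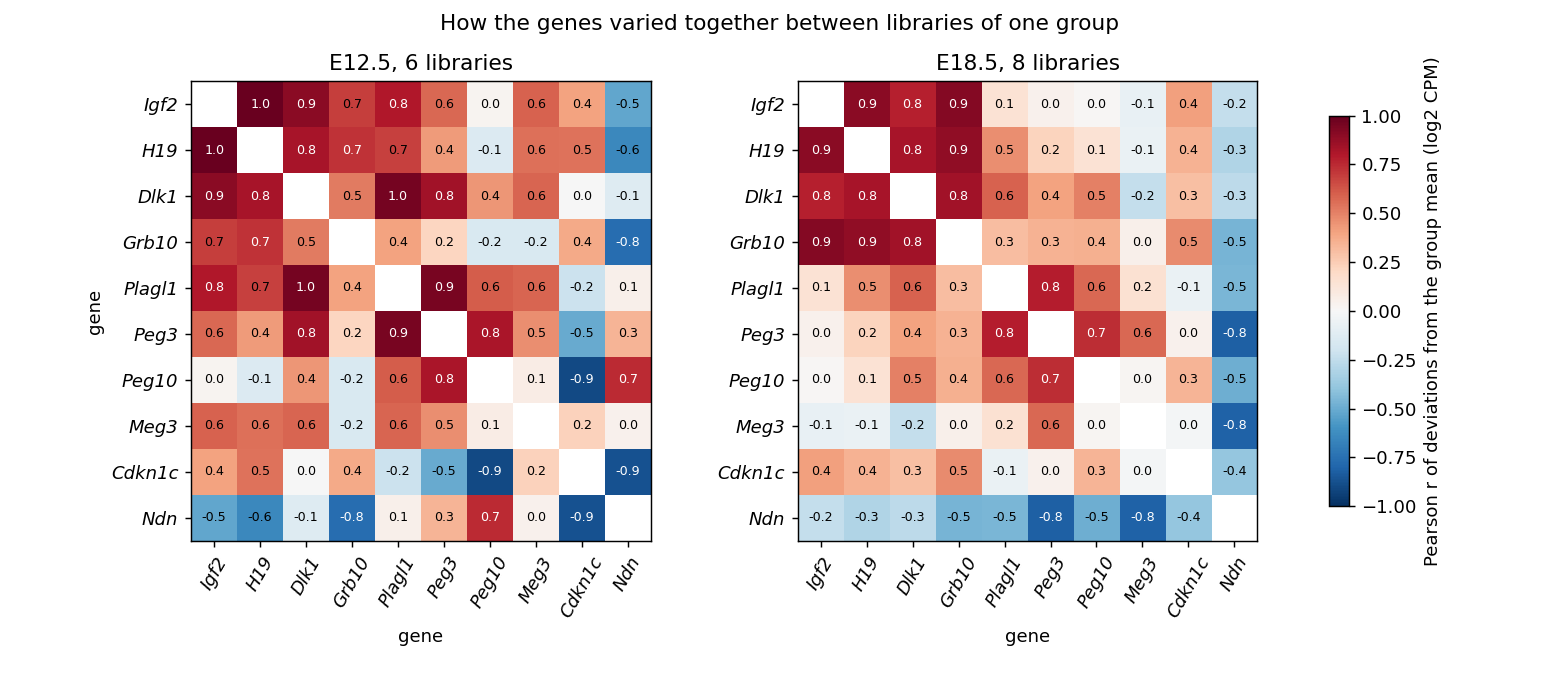
Colour and printed figures give Pearson's r of the deviations from the group mean for each pair of genes, at E12.5 on the left and E18.5 on the right, with red for values above 0 and blue for values below 0. Printed figures have 1 decimal. Igf2 and H19 stand at 0.99 and 0.91, and Ndn with Peg10 at 0.75 at E12.5 and -0.49 at E18.5.

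The genes most like each one, by the same measure among genes with a mean of at least 5 CPM, differed between the 10. For Igf2 they were Dab2, Arap1 and Fbln5, with r of 0.99, 0.98 and 0.98. For H19 they were Mmp2, Pdgfrb and Wnt4, with r of 0.99, 0.98 and 0.98. For Dlk1 they were Lats2, Col5a2 and Amotl1, at 0.96, 0.96 and 0.94, and for Grb10 they were Foxd1, Ppic and Ptbp1, at 0.95, 0.92 and 0.92. Fbln5, Mmp2 and Col5a2 encode proteins or an enzyme of the extracellular matrix, and Pdgfrb and Foxd1 stand in the lists of pericyte and meningeal markers. Dab2, Arap1, Wnt4, Lats2, Amotl1, Ppic and Ptbp1 stand in none of the marker lists used. The cell source of these patterns was not tested.

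For Meg3 the most like genes were Leng8, Miat and Akap8l, with r of 0.98 each, and Miat is a nuclear long noncoding RNA like Meg3. For Plagl1 they were Phf8, Mon2 and Cachd1, at 0.97, 0.97 and 0.94. For Peg3 they were Cnot4, Nhsl1 and Eif4g3, at 0.95, 0.94 and 0.94. For Peg10 they were Bptf, Hmbox1 and Ash1l, at 0.95, 0.94 and 0.92. For Ndn they were Lipg, Cadm4 and Nif3l1, at 0.89, 0.88 and 0.88. Among those for Cdkn1c, Klf2 and Pak4 had r of 0.86 each, and Pak4 had r of only 0.32 at E12.5.

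Meningeal markers varied widely between the ff libraries of E12.5, as did Igf2 and H19. The summed TPM of 16 such markers, led by Col3a1 and Col1a2, was 249.6, 938 and 643 in the ff libraries of E12.5 and 743, 655 and 630.3 in dcKO. Igf2 was 99.2, 419.5 and 283 TPM in these ff libraries and H19 was 159, 647 and 495 TPM. The ff library with the lowest marker sum thus had the lowest Igf2 and H19, and the one with the highest sum had the highest. In the dcKO libraries Igf2 was 278, 298 and 315 TPM and H19 was 405, 508 and 514 TPM. There the order was reversed, and the library with the highest marker sum had the lowest Igf2 and H19.

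At E18.5 the marker sum was 324, 474, 313 and 564 TPM in ff and 499, 556, 492 and 723 TPM in dcKO. Igf2 was 249, 282.5, 264 and 418 TPM in ff and 366, 405, 354 and 559 TPM in dcKO. In both groups replicate 4 had the highest marker sum, the highest Igf2 and the highest H19. Of the 16 meningeal markers 3 were called higher in dcKO, where 15.6% of all genes were, and none was at 0 in all libraries of a group. Their median log2 fold change was 0.42, beside 0.44 over the 10 imprinted genes and 0.03 over all genes. The part of meningeal tissue in the Igf2 and H19 values was not tested.

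**Figure D5:**
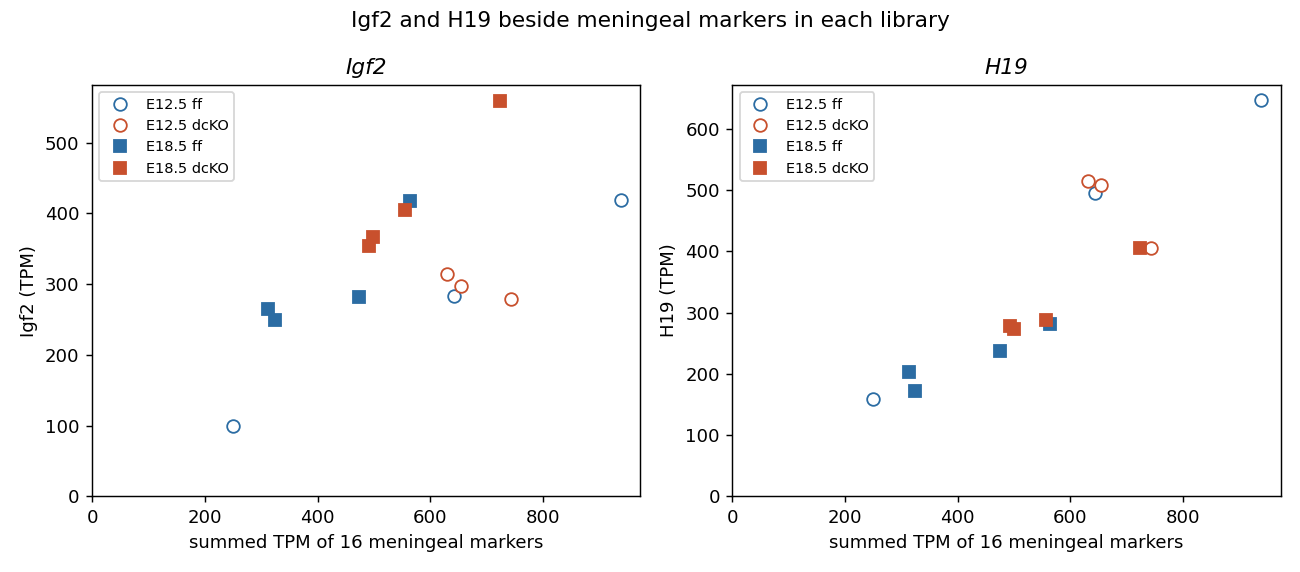
Igf2 (left) and H19 (right) in TPM are plotted against the summed TPM of 16 meningeal markers, 1 point per library, with open circles for E12.5, filled squares for E18.5, blue for ff and red for dcKO. The E12.5 ff libraries run from a marker sum of 249.6 with 159 TPM of H19 to a sum of 938 with 647 TPM of H19.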

How the data were processed

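Extraction used the RNeasy Mini Kit and library construction the TruSeq Stranded mRNA kit (labels' protocols). Trim Galore, STAR, RSEM and DESeq2 are the tools named, per the submitters' processing notes. Versions, genome build, annotation and counting strand are not given in the sources used here. Expected counts, RSEM's estimates before any normalization, stand in the authors' tables with 1 column per library. TPM values came from the authors' RSEM run too. For both genotype comparisons the authors deposited DESeq2 tables with log2 fold changes, their errors and adjusted p-values, per the file headers. Of 56941 gene IDs, 56131 had a symbol.

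After rounding, expected counts entered edgeR 4.0.16 under R 4.3.3 (filterByExpr, TMM, robust quasi-likelihood test, two-sided), each stage in its own fit for the genotype differences and 1 fit of 4 groups for stage differences and the interaction. Benjamini-Hochberg adjustment ran over all genes tested, with a threshold of 0.05. The scripts were tested on simulated data. Alternatives used DESeq2 1.42.0, limma 3.58.1, other scalings and filters, sex, length and GC content, and libraries left out. Log CPM used a prior count of 2 and log2 TPM a pseudocount of 1. Replicate numbers follow the order of the table columns, and the columns called dfl were read as ff. The labels number the samples but do not say that they came from separate animals, so p-values measure only the spread between these samples. Sex rests on 4 Y-linked genes set against Xist.

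The genes and lists were chosen with earlier results of these data known. Names from the lists follow a rule: up to 4 other imprinted genes and 3 genes of the IGF and CDK lists per direction with the lowest p among calls, the 3 most like genes of each member with a symbol, leaving out predicted genes, and the 2 markers of each list with the highest mean TPM. An adjustment of the TPM tests over the 10 genes had been planned and is not given. Of the genes this rule selects, 2 are not reported here. The deposited values are not read as allele-specific.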

Additional observations from a re-analysis of the deposited data

Results flagged for a closer look

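Of 20 groups of 4 libraries of E18.5 that were checked, 1 library stood apart from the other 3 in 2 of them, where chance alone marks about 1 group in 20. Igf2 in ff replicate 4 was at 594.4 CPM, and its gap to the next library took up 0.87 of the range of the group. H19 in dcKO replicate 4 was at 390.2 CPM, with a gap of 0.906 of the range. Both libraries had the highest sum of meningeal markers in their group, at 564 and 723 TPM, and its part in these values was not tested.

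The genotype difference differed between E18.5 and E12.5, by the test of the difference itself, for 5 genes. Stage and dissected tissue cannot be told apart there. The log2 differences were 1.131 for Plagl1, 0.9963 for Peg10, 0.626 for Peg3, 0.6101 for Grb10 and -0.3285 for Ndn. Plagl1, Peg3 and Grb10 had log2 fold changes of -0.25, -0.22 and -0.28 at E12.5, none of them called, and of 0.93, 0.45 and 0.37 at E18.5. Without ff replicate 2 of E12.5 the E12.5 values were -0.090 for Plagl1 and -0.095 for Peg3, and Grb10 lay between -0.35 and -0.19 with single libraries left out.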

How the results depend on the processing

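The number of genes called was 5 to 9 of 10 at E18.5, 7 to 9 for the stage difference in ff, 8 to 10 in dcKO and 3 to 6 for the interaction, over all settings tried. Counts over all genes under these settings are given below for E12.5 only, and not for every setting. For the other comparisons these ranges therefore cannot be set against all genes. Leaving out 1 library at a time gave 0 called genes at E12.5, 5 to 9 at E18.5 and 3 to 6 for the interaction. On TPM at E12.5 it gave 2 to 4 genes with groups that did not overlap. Groups of 3 and 2 libraries separate more readily than 3 against 3, and the share of all genes that did so was not counted. DESeq2's Wald test called 2 of the 10 genes at E12.5 (1 higher, 1 lower), 5 IGF pathway genes and 7 other imprinted genes. With 1 fit of all 14 libraries these lists had 5 and 4 calls at E12.5, limma-voom and no filter on low counts each gave 1 call of another imprinted gene, and leaving out single libraries gave 0 to 3 and 0 to 4. Over the whole table of E12.5, 34 genes were called as reported, 1203 by DESeq2's Wald test, 1079 in 1 fit of all libraries, 3 with sex as a covariate, 571 without dcKO replicate 1 and 0 without dcKO replicate 2 or 3, where 1790 and 1723 had an unadjusted p under 0.05.

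Of 990 values of the 10 genes under an alternative, 910 kept their direction and their side of the threshold, 37 lost and 16 gained a call, and 27 turned direction, none of them called in the result as reported. At E12.5 without both shallow libraries the log2 fold changes were -0.14 for Dlk1, -0.21 for H19, -0.26 for Igf2 and 0.00077 for Peg10. Dlk1 was at -0.0067 with limma-voom. Length and GC correction gave 0.18 for Meg3 and 0.10 for Peg10. Peg10 was also at 0.00070 in 1 fit of all libraries, at 0.0057 with a mean of at least 1 CPM and at 0.044 with upper quartile scaling. At E18.5 Cdkn1c was at -0.0071 without the shallow libraries and at -0.035 with length and GC correction. The Igf2 stage difference in ff was -0.21 without the shallow libraries.

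Leaving out 1 library gave, at E12.5, -0.14 to 0.21 for Dlk1, -0.21 to 0.49 for H19, -0.26 to 0.44 for Igf2, -0.30 to 0.33 for Meg3 and -0.22 to 0.10 for Peg10. At E18.5 it gave -0.0071 to 0.15 for Cdkn1c and -0.061 to 0.0042 for Sbno1. It gave -0.21 to 0.51 for the Igf2 stage difference in ff, and -0.11 to 0.60 for H19 and -0.065 to 0.65 for Igf2 in the interaction. The causes were not tested. Length and GC correction moved the median of all genes to -0.11 in the stage difference in ff. No paired analysis was possible because the columns carry no replicate numbers that groups share.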
